A study of Mus musculus with 2 samples.

Results

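The mitochondrial protein import genes described here are the 26 protein-coding genes whose symbol starts with Timm or Tomm, out of 43346 gene rows measured and 21474 protein-coding genes. They were chosen by name alone, by matching the gene identifiers of the deposited tables to GENCODE M21 symbols, and no measured value entered the choice. Purkinje cells are the neurons that carry the output of the cerebellar cortex, and RNA was sequenced from 2 pools of them, each of 30 cells cut from tissue by laser capture. They came from B6CASTF1/J animals, hybrids of C57BL/6 and CAST parents, which were male and aged 14 months. The pools are numbered 1 and 2 as biological replicates in the labels but carry the same donor identifier, so a standard deviation (SD) here shows only how far apart the pools lay, and that distance may be technical. No treatment, no second genotype and no other cell type was included, so the comparisons below are between members, between complexes and between the pools.

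Nearly all mitochondrial proteins are made in the cytosol and carried across the organelle's membranes by protein complexes. The translocase of the outer membrane (TOM) receives precursors on its receptors and passes them through the Tomm40 channel. The small Tim chaperones of the intermembrane space then escort hydrophobic precursors, and the translocases of the inner membrane (TIM23 and TIM22) complete the transfer into the matrix or the inner membrane. Purkinje cells fire almost continuously and have a high demand for mitochondrial energy.

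The small Tims share a pattern of cysteines that is visible in their coding sequences. The Timm8 genes are shown because their levels stood farthest apart among the related genes. Each line is the reference coding strand, 5′ to 3′, from the first to the stop codon, of the GENCODE M21 transcripts Timm8b-201, Timm8a1-201 and Timm8a2-201, and it was not read from these libraries. Capitals mark in-frame cysteine codons that lie in a pair separated by exactly 3 codons. Timm8b lies on the plus strand at chr9:50603910-50605320 of build mm10, Timm8a1 on the minus strand at chrX:134537256-134541865, and Timm8a2 on the plus strand at chr14:122034674-122038420.
Timm8b: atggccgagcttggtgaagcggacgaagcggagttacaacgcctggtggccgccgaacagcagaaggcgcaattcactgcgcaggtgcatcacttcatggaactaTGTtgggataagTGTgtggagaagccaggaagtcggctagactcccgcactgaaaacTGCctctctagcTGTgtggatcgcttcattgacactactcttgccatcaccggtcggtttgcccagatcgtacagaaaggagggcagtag
Timm8a1: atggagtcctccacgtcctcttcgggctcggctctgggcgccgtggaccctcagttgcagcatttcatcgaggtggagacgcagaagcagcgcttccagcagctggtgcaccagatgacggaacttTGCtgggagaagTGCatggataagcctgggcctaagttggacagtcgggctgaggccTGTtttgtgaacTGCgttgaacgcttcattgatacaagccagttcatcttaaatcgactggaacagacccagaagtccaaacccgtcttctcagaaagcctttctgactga
Timm8a2: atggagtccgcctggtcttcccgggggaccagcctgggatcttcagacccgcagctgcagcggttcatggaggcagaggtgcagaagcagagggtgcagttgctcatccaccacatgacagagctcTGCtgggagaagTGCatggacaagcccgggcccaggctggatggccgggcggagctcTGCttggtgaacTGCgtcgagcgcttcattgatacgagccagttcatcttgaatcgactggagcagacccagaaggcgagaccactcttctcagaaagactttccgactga
Each of the 7 small Tims with a Timm symbol held 4 cysteine codons arranged in 2 such pairs. Aligned over their coding bases, Timm8a1 and Timm8a2 were 77.6% identical, with no identical run longer than 20 bases. Timm8a1 and Timm8b were 61.4% identical, and Timm8a2 and Timm8b were 62.8% identical.

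The libraries held 31437230 and 28591242 expected counts on genes in pools 1 and 2, and spike-in RNA took a further 0.211% and 0.411% of all counts. Levels are given as TPM, each gene's length-normalised share of the transcripts in a library, and a gene counts as detected where its TPM reached 1 in both pools. All 8 Purkinje markers were detected, with summed TPM of 94585 and 93879. Bergmann glia and astrocyte markers, 7 of 8 detected, summed to TPM of 2708 in pool 1 and 4587 in pool 2, while their member Gfap stood at 0.50 and 0.47. Red blood cell markers, 4 of 5 detected, summed to TPM of 2453 and 16.3. Summed TPM was 33.3 and 43.8 for granule cell markers (5 of 6 detected), 36.4 and 52.6 for oligodendrocyte markers (3 of 6), 24.6 and 22.9 for interneuron markers (2 of 5), 19.0 and 13.7 for endothelial and mural markers (2 of 6), and 3.51 and 3.26 for microglial markers (1 of 5). The part of these other cells in the values below was not tested. In pools of captured cells, fewer cells of a type and less RNA per cell cannot be told apart.

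Of the 26 members, 24 were detected, which is 92.3% of them, against 30.3% of all protein-coding genes. Their median log2(TPM + 1) was 3.53 ± 0.31 (SD, n = 2), against 0.27 ± 0.03 over all protein-coding genes and 2.62 ± 0.20 over the 6506 protein-coding genes detected in both pools. The median level of the members was thus near that of the 77 mitochondrial ribosomal protein genes, at 3.79 ± 0.15 on the log2(TPM + 1) scale, and far below that of 36 complex I subunit genes of the respiratory chain, at 8.87 ± 0.30. No test was made of these differences, because the genes of a list are not replicates. The members took 0.158% of all counts in each pool, and their TPM summed to 1707 in pool 1 and 1752 in pool 2. The top 5 members carried 81.3% and 77.3% of that sum. The plot of member levels shows how wide the range was, with 4 members over a TPM of 100 in both pools and 10 with reads whose mean TPM was under 10.

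**Figure D1:**
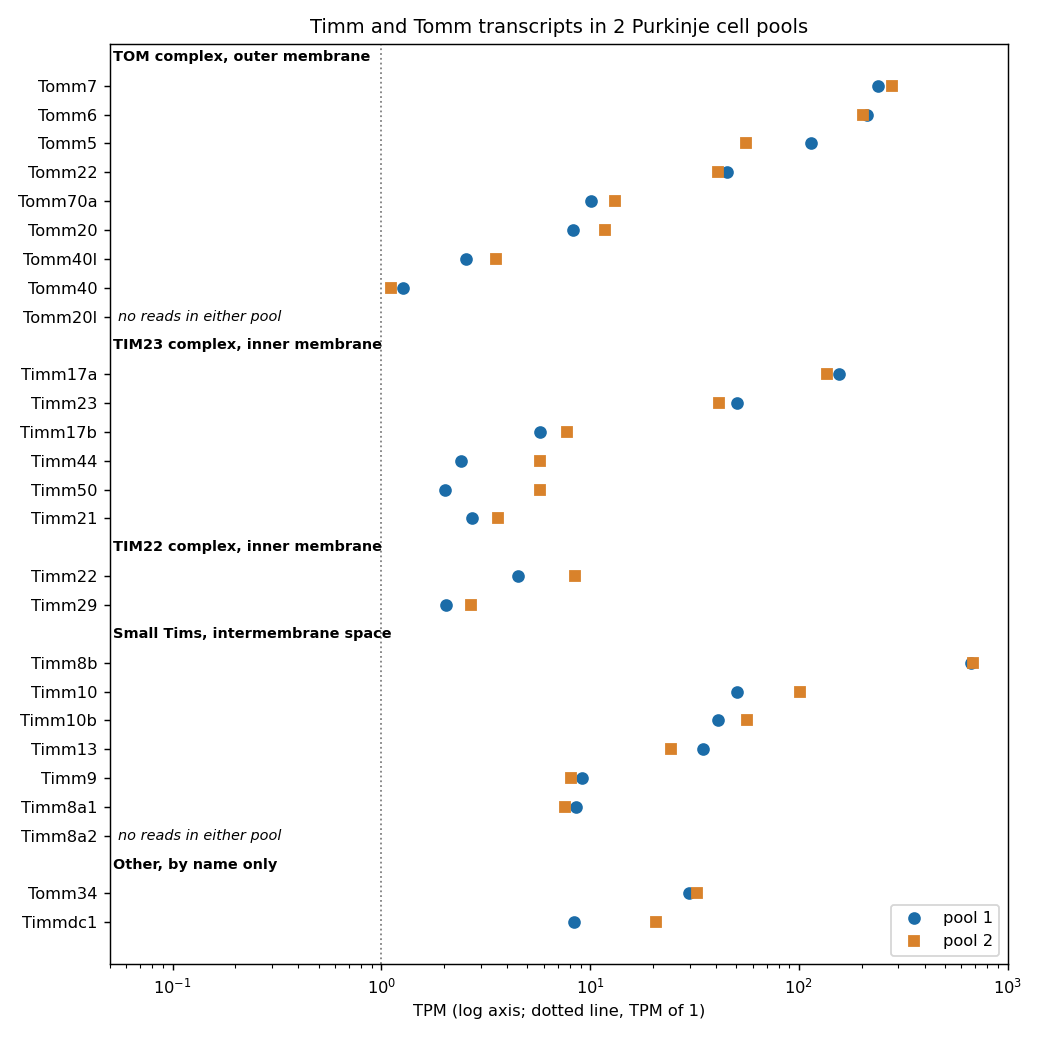
TPM of each member in each of the 2 pools, on a log axis, grouped by complex, with circles for pool 1, squares for pool 2 and a dotted line at a TPM of 1. Over all transcripts of a gene, Timm8b stood highest at 664.71 and 680.18 and Tomm40 was lowest among the 24 members with reads. Tomm20l and Timm8a2 had no read in either pool.

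At the outer membrane, by TPM over all transcripts of a gene, the 3 small TOM subunits were the most abundant. By the same measure the channel itself was the least abundant member with reads. Tomm7, Tomm6 and Tomm5 are small membrane proteins that sit around the channel and affect the assembly and stability of the complex. Tomm7 (chr5:23838944-23844161, minus strand) had TPM of 239.59 and 280.84 in pools 1 and 2, from 9984 and 10078 counts. Tomm6 (chr17:47686646-47688386, minus strand) had TPM of 212.94 and 202.02. Tomm5 (chr4:45105208-45108114, minus strand) had TPM of 113.97 and 55.91, so that its pools stood much farther apart than those of Tomm6 or Tomm7. The levels of these genes did not overlap over the pools: Tomm7 was above Tomm6 in both, and Tomm6 above Tomm5.

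The receptors lay below them. Tomm22, a central receptor that also organises the complex, had TPM of 45.19 and 41.22. Tomm70a, the receptor for precursors with internal signals, had TPM of 10.08 and 13.14. Tomm20, the receptor for cleavable presequences, had TPM of 8.29 and 11.78, and its range overlapped that of Tomm70a. Tomm40 (chr7:19701313-19715438, minus strand), the channel protein, had only 76 and 66 counts, with TPM of 1.27 and 1.11. Its relative Tomm40l had TPM of 2.54 and 3.54, above Tomm40 in both pools. By these TPM values, Tomm22 was 35.6-fold and 37.1-fold above Tomm40 in pools 1 and 2, although both proteins belong to the same core complex.

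Inner membrane genes had a lower median level than those of the outer membrane. The median log2(TPM + 1) of the 9 TOM genes was 3.65 ± 0.25 (SD, n = 2) and that of the 8 TIM23 and TIM22 genes was 2.56 ± 0.54. The difference was 1.29 in pool 1 and 0.88 in pool 2, or 1.08 ± 0.29 on that log2 scale. Both pools gave the same direction, but with 2 pools no exact test can reach a threshold of 0.05, and none was made. When the small Tims were counted as inner membrane genes the difference was 0.21 in pool 1 and 0.64 in pool 2, with a mean of 0.42, and without division by transcript length the mean was 2.46, so its size depended on these choices.

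Within the TIM23 complex, Timm17a and Timm23 stood above the other 4 genes in both pools. Timm17a (chr1:135295213-135313778, minus strand), a subunit of the channel, had TPM of 155.93 and 135.85, and Timm23 (chr14:32180162-32201898, minus strand), its partner, had 50.53 and 41.46. Timm17b, the X-linked relative of Timm17a, had TPM of 5.77 and 7.74. Timm44, which tethers the import motor on the matrix side, stood at TPM of 2.40 and 5.76, and Timm50, the receptor for presequences, at 2.02 and 5.78. Timm21, which contacts the outer complex, had TPM of 2.71 and 3.62. The last 3 genes overlapped over the pools, and their order could not be told. In the TIM22 complex, which inserts carrier proteins, Timm22 had TPM of 4.52 and 8.45, and Timm29, a subunit that binds TIM22, had 2.04 and 2.70.

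The small Tims held both the most abundant member and a member with no reads. Timm8b had TPM of 664.71 and 680.18, from 11555 and 10182 counts, and exceeded every other member in both pools. Timm10 (chr2:84826997-84830213, plus strand) and Timm9 (chr12:71123173-71136684, minus strand) encode proteins that assemble into a hexameric chaperone for carrier precursors. Timm10 had TPM of 50.78 and 101.69, whereas Timm9 had 9.16 and 8.06. The ratio of Timm9 to Timm10 in TPM was 0.18 in pool 1 and 0.079 in pool 2, although the proteins are parts of one chaperone. Timm13, which assembles with a Timm8 protein, had TPM of 34.70 and 24.50, and Timm8a1, whose human counterpart is mutated in deafness-dystonia syndrome, had 8.60 and 7.55. Timm13 was therefore above Timm8a1 and below Timm8b in both pools.

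The remaining members carry the name but work elsewhere. Tomm34, a cytosolic cochaperone, had TPM of 29.66 and 32.45. Timmdc1, which takes part in assembly of complex I, had TPM of 8.35 and 20.60, and its pools stood farther apart than those of Tomm34. Along the whole order of the 24 members with reads, 7 of 23 neighbouring pairs had ranges over the pools that did not overlap. These were the steps from Timm8b to Tomm7, Tomm6, Timm17a and Tomm5, from Tomm22 to Tomm34, from Timm13 to Timmdc1, and from Timm29 to Tomm40. All other neighbours had ranges that overlapped.

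Among related genes, 1 copy usually dominated. Timm17a was 27.0-fold above Timm17b in TPM in pool 1 and 17.6-fold in pool 2, a log2 ratio of 4.25 ± 0.40 (SD, n = 2) after adding 1 to each TPM. Timm17a took 97.1% of the counts of that pair in pool 1, with an exact 95% binomial interval of 96.6 to 97.5%, and 95.3% in pool 2, with an interval of 94.6 to 95.9%. These intervals cover counting error only, since reads without molecular identifiers are not independent molecules. The coding sequences of Timm17a and Timm17b were 68.2% identical.

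Timm8b was 77.3-fold and 90.1-fold above Timm8a1 in TPM in pools 1 and 2, the widest ratio among the pairs in which both genes had reads. Timm8a2 had no count in either pool. A count of 0 allows up to 3 counts per library, which for Timm8a2 corresponds to TPM of 0.0907 and 0.105. Against that floor, Timm8a1 was at least 94.8-fold higher than Timm8a2 in pool 1 and at least 71.7-fold higher in pool 2. Of the genes whose sequences are shown above, Timm8b held nearly all of the reads and Timm8a2 none.

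Tomm20l, the relative of Tomm20, also had no count, and Tomm20 was at least 55.8-fold and 68.3-fold higher against the same floor. Tomm20l (chr12:71111428-71123221, plus strand) and Timm9 overlap at their tails on opposite strands, and whether reads were counted by strand is unknown from these sources. The remaining pairs were closer. Timm10b, a small Tim that docks the chaperone at TIM22, had TPM of 40.89 and 56.15. Timm10 was 1.24-fold and 1.81-fold above it in TPM, with a log2 ratio of 0.58 ± 0.38 after adding 1. Tomm40l was 2.00-fold and 3.19-fold above Tomm40 in TPM, with Tomm40 taking 28.3% and 22.4% of the counts of the pair. In 4 of the 6 pairs the log2 ratio lay beyond 1 in the same direction in both pools: these were the Timm17, Timm8a1 and Timm8b, Timm8a1 and Timm8a2, and Tomm20 pairs. The plot of the pairs shows both pools.

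**Figure D2:**
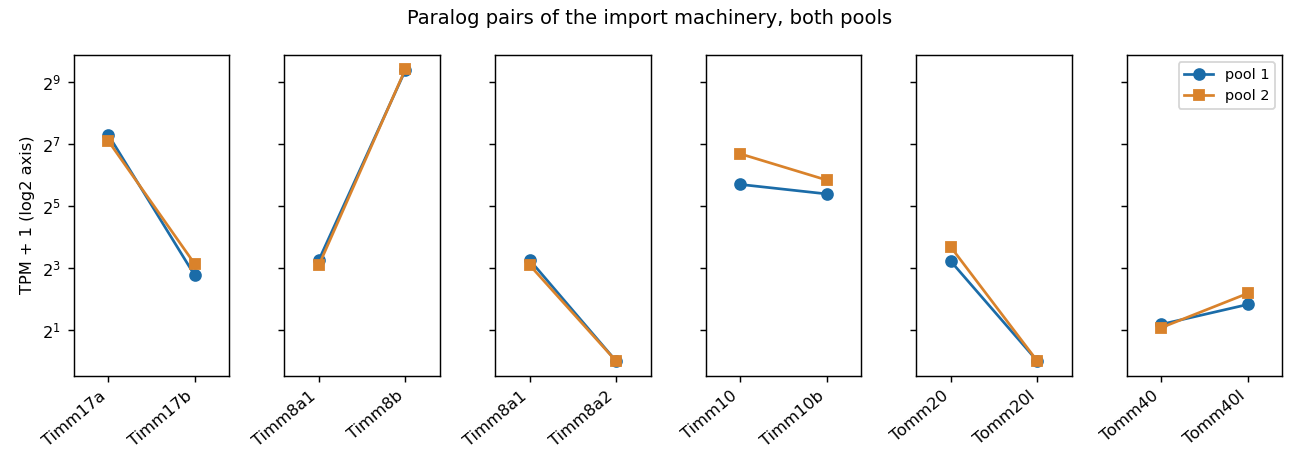
TPM + 1 on a log2 axis for both genes of each of the 6 pairs, with a line joining them in each pool, so that a steeper line is a larger ratio. The log2 ratio of Timm17a over Timm17b was 4.53 and 3.97 and that of Timm8a1 over Timm8b was -6.12 and -6.32, while Timm10 and Timm10b lay closer.

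The deposited tables also split each gene over its annotated transcripts, and for several members much of the TPM sat on transcripts that encode no full protein. Of the 24 members with reads, 15 had all of their TPM on transcripts typed protein-coding in GENCODE M21, and 8 had under 95% in at least 1 pool. For Timm17a, a retained-intron transcript of 565 bases, Timm17a-204, held 74.3% of the gene's TPM in pool 1 and 69.7% in pool 2. The long coding transcript Timm17a-201, of 7280 bases, held 2647 and 1950 counts but only 5.82% and 5.72% of TPM, because TPM divides counts by length. On transcripts typed protein-coding alone, Timm17a had TPM of 40.07 and 41.19 and was 11.8-fold and 14.2-fold above Timm17b. That was below Tomm5 in both pools, at 113.97 and 55.91, so the step from Timm17a down to Tomm5 holds only over all transcripts. Most of the coding TPM of Timm17a, 30.99 and 33.42, sat on Timm17a-203, a model of 468 bases. The coding sequence of Timm17a-201 has 516. Timm17b-202, at TPM of 2.77 and 2.22, likewise has 438 bases, against a coding sequence of 519 in Timm17b-201. The coding ratio of this pair thus rests largely on models too short for the full protein.

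A further pair of genes had under 50% of their TPM on coding transcripts in both pools. Timm50 had 27.7% and 11.1% there, or TPM of 0.56 and 0.64, which left it under 1. It was then below Tomm40, whose coding TPM was 1.27 and 0.91, so Tomm40 was lowest only over all transcripts. Timm10b had 40.7% and 38.0%, so that the ratio of Timm10 to Timm10b in coding TPM was 3.06 and 4.76. The coding TPM of Timm10b includes a transcript that GENCODE M21 names Gm45799-201, with TPM of 3.63 and 6.31. Without that transcript the ratio would be larger. For Tomm40l, a transcript typed as a target of nonsense-mediated decay, Tomm40l-206, took 59.6% and 49.6% of TPM. On coding transcripts alone, the ratio of Tomm40 to Tomm40l was 1.23 in pool 1 and 0.51 in pool 2, and their order was not the same in both pools. The coding TPM of Tomm40l included a model of 362 bases in pool 1, at 0.40, and of 477 bases in pool 2, at 0.73. Both are shorter than the 927-base coding sequence of Tomm40l-201. For Timm23, a noncoding transcript typed processed transcript took 54.3% and 43.1% of TPM.

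**Figure D3:**
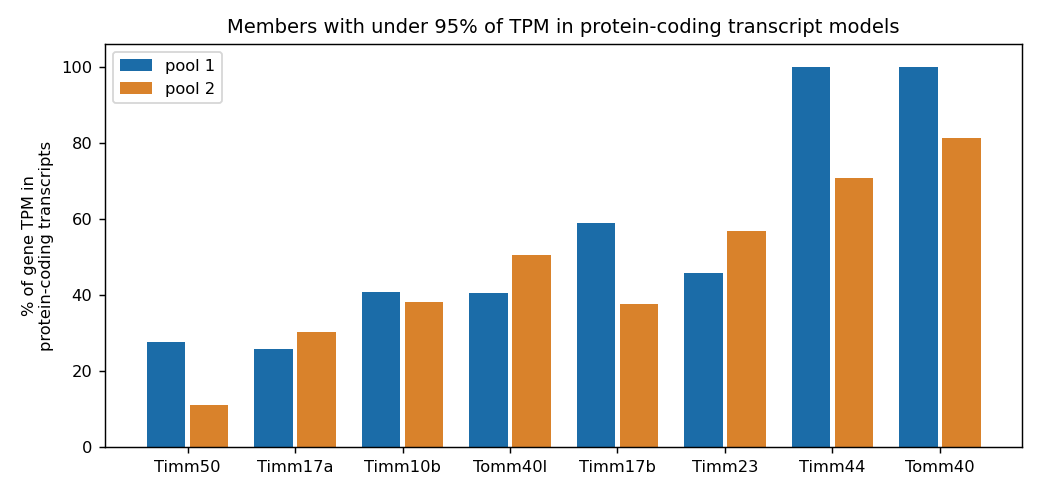
Percent of each gene's TPM on protein-coding transcript models, in each pool, for the 8 members under 95% in at least 1 pool. Timm50, Timm17a and Timm10b were under 50% in both pools.

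Among the 16 members with several annotated transcripts, 14 had the same leading transcript in both pools. The others were Timm17b and Timm22. For Timm22, the transcript Timm22-201 of 2817 bases took 63.7% of TPM in pool 1 and 28.8% in pool 2, while Timm22-202 of 746 bases took 28.9% and 47.0%. Its counts were nearly level, at 356 and 340, whereas its TPM was 4.52 and 8.45.

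Sequence shared with other genes limits some of these values. Exact 100-base stretches of its transcripts recurred in transcripts of other genes for 62.1% of Tomm6, 48.7% of Tomm40l, 47.0% of Timm23 and 38.8% of Timm8a1. Gm10273, an annotated gene that shares stretches with Timm23, had TPM of 24.93 and 23.44, so reads of Timm23 and Gm10273 cannot be fully told apart. Gm21981, which shares stretches with Tomm6, had 0 and 1.68 counts, while Nr1i3, which shares with Tomm40l, and the pseudogene Gm9797, which shares with Timm8a1, had none in either pool. Gene counts were whole, within 0.005, for 19 of the 24 members with reads, and fractional for Tomm6, Timm17a, Timm10b, Timm23 and Tomm20.

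Between the pools, the members differed about as often as detected protein-coding genes. Counts were scaled with edgeR's trimmed mean of M-values (TMM), 0.5 was added to each, and genes with at least 10 counts in total were compared. Of the 24 members tested, 2 lay beyond a 2-fold difference in scaled counts, which is 8.33%, against 31.6% of the 14495 genes tested and 9.25% of detected protein-coding genes. Timmdc1 was higher in pool 2, with 500 and 1062 counts and a log2 ratio of 1.03. Tomm5 was higher in pool 1, with 2500 and 1056 counts and a log2 ratio of -1.30.

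By a two-sided exact binomial test of the rounded counts, with Benjamini-Hochberg adjustment over all genes tested, 16 of the 24 members (66.7%) passed an adjusted p of 0.05. The share was 65.8% of all genes tested and 70.8% of detected protein-coding genes, so the members' share lay near the background. This test compares 2 libraries and has no replicate check. Among the 6506 detected protein-coding genes, 2237 passed as higher in pool 2 and 2371 as higher in pool 1. Of the 16 members, 5 were higher in pool 2, where the background was 33.3% of all genes tested. The other 11 were higher in pool 1, where it was 32.5%. Those higher in pool 2 were Timmdc1, Timm50, Timm10, Timm44 and Tomm20, with log2 ratios from 1.03 to 0.23. Those higher in pool 1 ran from Tomm5 at -1.30 and Timm13 at -0.78 to Tomm34 at -0.14 and Tomm7 at -0.05. Between them were Timm23, Timm17a, Timm8a1, Timm9, Tomm22, Tomm6 and Timm8b. These ratios cover all transcripts of a gene. The coding transcript of Timm50 was level, at 32 and 31.72 counts in pools 1 and 2. Its retained-intron transcripts rose from 18.43 to 43.1 and from 3.57 to 30.19. For Timm23, the noncoding processed transcript fell from 865.06 to 484.93 counts. Its coding transcripts fell less, from 407.23 to 350.09 and from 361.74 to 331.86, and in TPM they summed to 23.08 and 23.59. These transcript counts of Timm50 and Timm23 were not scaled for library size, so a small fall in them gives no direction.

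The split depended on the scaling. With total counts, 11 members were higher in pool 2 and 8 higher in pool 1, and with spike-in totals 1 and 20 were. In either direction, 66.4% of all genes tested passed with total counts and 75.9% with spike-in totals. The shares of all genes by direction were not counted for these scalings, so the split of the members cannot be set against them. The median log2 ratio of all genes tested was -0.01 with TMM, 0.19 with total counts and -0.78 with spike-in totals, and single ratios moved with it. Under all 4 scalings, 11 of the 16 kept their sign in counts over all transcripts of a gene. Of these, Timmdc1 and Timm50 were higher in pool 2. Tomm5, Timm13, Timm23, Timm17a, Timm8a1, Timm9, Tomm22, Tomm6 and Timm8b were higher in pool 1. Timm10, Timm44, Tomm20, Tomm34 and Tomm7 did not keep their sign. A change of scaling moves every log2 ratio by the same amount, so only the TMM ratio decides which members keep their sign. Spike-in totals moved ratios the most, toward pool 1, so a ratio higher in pool 2 had to be larger to keep its sign. By TMM, Timm8b at -0.24 kept its sign and Timm10 at 0.73 did not. The 11 and their split by direction follow from this and are no separate support. The share of all genes that kept their sign was not counted. On the log2(TPM + 1) scale the median ratio was 0.26 over the members, 0.13 over all genes tested and 0.19 over detected protein-coding genes. For 4 members, Timm8b, Tomm7, Timm22 and Tomm34, pool 2 was higher by TPM but not by TMM-scaled counts. Beside these ratios, 7 of 8 Bergmann glia and astrocyte markers and 3 of 8 Purkinje markers had higher TPM in pool 2, as did 9115 of the 14495 genes tested. By TMM-scaled counts, 6 of the 8 glial markers and 0 of the 8 Purkinje markers were higher in pool 2, as were 7200 of the 14495 genes. The part of either in the members' ratios was not tested. The plot of ratios between pools shows the members in order.

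**Figure D4:**
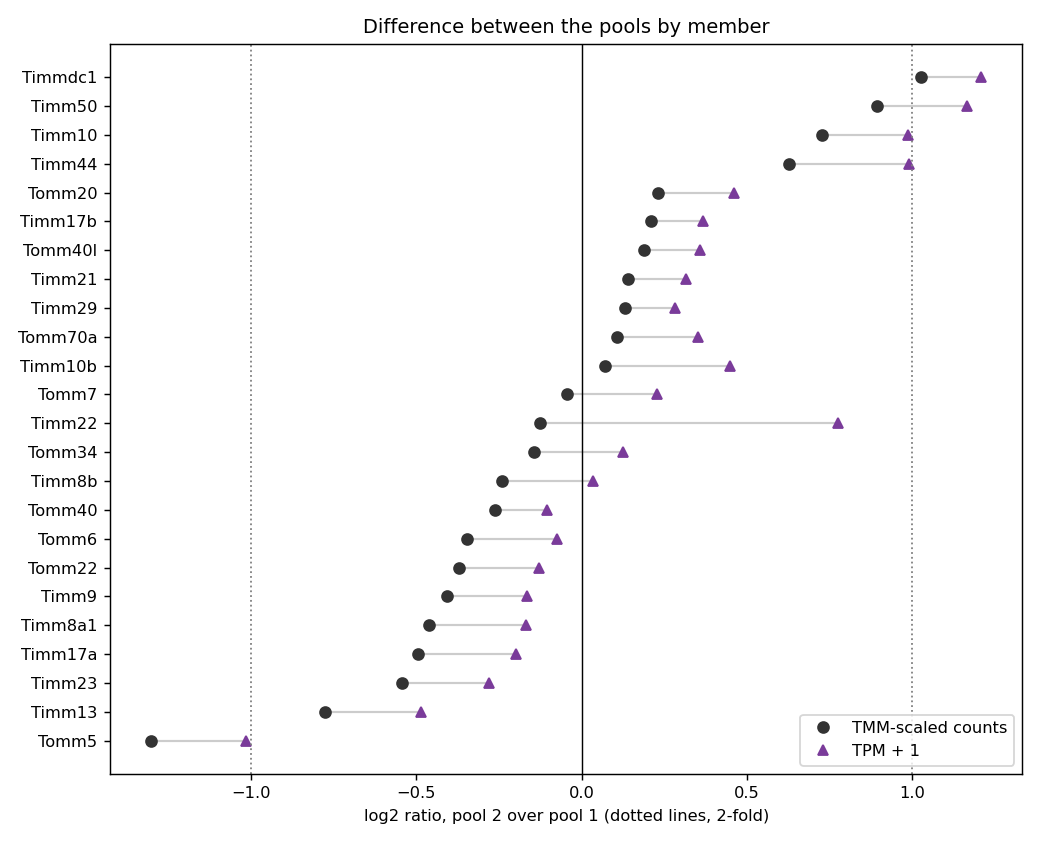
log2 ratio of pool 2 over pool 1 for the 24 members with reads, by TMM-scaled counts (circles) and by TPM + 1 (triangles), with dotted lines at 2-fold. By counts, Timmdc1 at 1.03 and Tomm5 at -1.30 lay outside the lines, and by TPM every member stood farther to the right.

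The wider import apparatus, a list of 35 genes that act with these translocases, was detected for 30 of 35 genes, with a median log2(TPM + 1) of 3.48 ± 0.14 (SD, n = 2). Between the pools, 11 were higher in pool 2 and 16 higher in pool 1 by the binomial test, against backgrounds of 33.3% and 32.5% of all genes tested. Among the 6506 detected protein-coding genes, 2237 and 2371 passed in these directions. Beyond 2-fold lay 8 of the 35, where the share was 31.6% of all genes tested and 9.25% of detected protein-coding genes. All 6 genes of sorting and assembly at the outer membrane were detected, and Mtch2, an insertase of that membrane, was the highest at TPM of 37.21 and 52.25. Chchd4, the import receptor that oxidises the small Tims, had TPM of 6.36 and 15.19, below Timm10 in both pools.

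In the import motor, 6 of 7 genes were detected. Dnajc15 and Dnajc19 encode J-domain cochaperones of the motor. Dnajc15 was the highest of the motor list, with TPM of 221.81 and 118.01, and was 7.15-fold and 2.82-fold above Dnajc19, which had 31.01 and 41.87. The nucleotide exchange factor Grpel1 had TPM of 8.05 and 4.41, and its relative Grpel2 had 0.48 and 0.58. Grpel2 was thus under 1 in both pools, and Grpel1 was 16.8-fold and 7.60-fold above it. These ratios, like those of the Timm17 genes, favoured 1 copy in both pools.

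Romo1, a small protein that acts with TIM23, had TPM of 192.8 and 176.71. Of the 6 peptidases, 3 were detected in both pools. Immp1l, a subunit of the inner membrane peptidase, had TPM of 20.07 and 42.68 and was 8.88-fold and 5.44-fold above its partner Immp2l, at 2.26 and 7.84, while Xpnpep3 had 0.15 and 0.06. Hspe1, the cochaperonin of the matrix, had TPM of 309.55 and 262.87.

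Of the contact-site genes, which shape the inner membrane and link it to the outer, all 7 were detected. Micos10, listed under its older name Minos1, had TPM of 1754.32 and 1826.56, above Timm8b in both pools. By the binomial test of TMM-scaled counts all 7 passed as higher in pool 1, with log2 ratios from -1.09 to -0.23, though 2 of the 7 had higher TPM in pool 2. In that direction 32.5% of all genes tested passed, as did 2371 of the 6506 detected protein-coding genes. Pink1, the kinase that is stabilised at the TOM complex of damaged mitochondria, had TPM of 15.69 and 8.89.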

How the data were processed

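The authors deposited a gene and a transcript table for each library, made against build mm10 with GENCODE M4, per a deposited text file. The sources used here name neither an aligner nor a quantification tool. The library kit was SMARTer Ultra Low, per the labels' protocols. The deposited columns used were expected counts, TPM, FPKM and, for transcripts, the percent of a gene's TPM, per the file headers. Effective lengths in the deposited tables were shorter than annotated lengths by a median of 99 bases, so TPM of short genes rests on that correction. Of 43346 gene identifiers, 42462 matched a GENCODE M21 symbol. Rows that named neither a gene nor a spike-in held 0.000412% and 0.000194% of counts in pools 1 and 2 and stayed out of the tests.

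The members were set by name alone, without use of a measured value. They, the gene lists and the tests were nevertheless chosen with earlier results of these data known. Named were every Timm and Tomm gene and, of the wider list, the highest of each sub-list, genes under a TPM of 1 in both pools and 3 pairs. Levels were compared as log2(TPM + 1). Expected counts were rounded for the binomial test, which was tested on simulated data. Those data held read sampling and planted changes only, so they cannot show how the test behaves where pools vary for other reasons. Scaling used edgeR 4.0.16 in R 4.3.3, with DESeq2 1.42.0 size factors as an alternative, and the rest used Python 3.11.15 and scipy 1.17.1. No fit with a contrast was possible with 1 group. Coding sequences were joined from GENCODE M21 transcripts and annotation. No protein sequence was used here.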

Additional observations from a re-analysis of the deposited data

How the results depend on the processing

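The outer minus inner difference in median log2(TPM + 1), 1.08, kept its direction under every alternative run. It was 2.46 from counts scaled to the library total with no length, 0.42 with the small Tims counted as inner (0.21 in pool 1 and 0.64 in pool 2), 1.99 with only members at a TPM of at least 1, and, in an alternative chosen after seeing the data, 1.50 on protein-coding transcripts. Using a single pool gave 0.88 to 1.29. With spike-in totals, 10 members lay beyond 2-fold, all higher in pool 1, against 2 with TMM, while the share of all genes tested beyond 2-fold was 46.6% and 31.6%. Counts of detected members were 24 in the alternatives run, except 17 at a TPM of at least 5 and 22 on protein-coding transcripts. Between 4 and 5 pairs lay beyond a log2 ratio of 1, and 16 to 21 members passed the binomial test. The share of all genes tested that passed ran from 52.7% with no filter on counts to 75.9% with spike-in totals, where 21 members passed. The split of the passing members by direction changed with the scaling, from 5 higher in pool 2 and 11 higher in pool 1 with TMM to 11 and 8 with total counts. The median log2 ratio of all genes tested moved too, from -0.01 to 0.19, and their split by direction with total counts was not counted. On protein-coding transcripts, the log2 ratio of Tomm40 over Tomm40l was 0.16 in pool 1 and -0.55 in pool 2, against -0.64 and -1.11 over all transcripts. No paired analysis was possible because the labels give 1 group. Depth limits Tomm40 and Timm50 most, which had from 54 to 105 counts in a library.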

Other observations

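Promoters of the members, 250 bases before to 50 after the start in RefSeq GRCm38.p6, were found for 23 of 26. Values are per gene: a motif in any listed promoter of a gene counted, and the highest CpG number was used. The ETS-type motif CCGGAAG, searched on both strands, was found for 10 members (43.5%). The share was 13.5% of 16317 protein-coding genes with a promoter and 22.2% of the 5198 of these detected in both pools. The NRF1-type motif, GCGC and TGCGC joined by any single base, was in 2 (8.70%), those of Timm8b and Tomm20, against 7.50% and 14.0%. The median number of CpG sites was 20 in the members, 16 in all protein-coding genes with a promoter and 23 in those detected, and the undetected Timm8a2 and Tomm20l had 10 and 13. Overlap between matches of these motifs was not counted, and a match is a description and not a binding site.

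Across the 24 members with reads, shorter genes had higher TPM, with a Spearman correlation of -0.57 between length and mean TPM and of -0.21 between length and counts. Over the 6506 detected protein-coding genes these were -0.35 and 0.16. The points come from the same libraries and TPM itself divides by length.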
